A study of Homo sapiens with 10 samples.

Results

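RNA from HEK293T cells that overexpressed BRSK2 was compared with RNA from HEK293T cells that overexpressed BRSK1. HEK293T is a human embryonic kidney cell line transformed with adenoviral genes and carrying the SV40 large T antigen. Of the 10 libraries of the study, 6 belong to this comparison: 3 of cells overexpressing BRSK2 for 24 h and 3 of cells overexpressing BRSK1 for 24 h, chosen by the genotype that the labels give. The other 4 libraries are controls of the same line, 2 with hcRED, a red fluorescent protein, overexpressed for 24 h and 2 called Mock, for which the labels state no agent, and they serve here as a level beside the kinases and for the estimate of spread. The vectors, the forms of the kinases and whether the samples were separate cultures are not stated in the labels, so the spread behind the p-values may be technical. The direct comparison asks where the transcriptomes under the 2 kinases differed from each other, with BRSK1 and BRSK2 themselves left out of the counts of genes.

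BRSK1 and BRSK2 are closely related serine/threonine kinases of the AMPK-related family, which the kinase LKB1 activates by phosphorylating the activation loop. They are most abundant in brain, where they act on microtubule-associated proteins and are needed for neuronal polarity. The series title says that both restrain NRF2, the factor that switches on antioxidant and glutathione genes when its inhibitor KEAP1 is disabled.

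Each overexpressed kinase took a large share of its library's counts. BRSK2 held 6.99%, 9.08% and 10.4% of all counts in BRSK2 replicates 1, 2 and 3, and BRSK1 held 4.72%, 6.52% and 6.96% in BRSK1 replicates 1, 2 and 3. The BRSK2 group thus stood at 8.81% ± 1.70 (SD, n = 3) and the BRSK1 group at 6.07% ± 1.19 (SD, n = 3). The 2 sets of libraries did not overlap, and the difference of 2.75 percentage points had a two-sided exact permutation p of 0.1, the smallest that 3 against 3 libraries allow. These are shares of counts and not of molecules, since the lengths of the expressed constructs are not given. The share of the introduced transcript thus changed together with the kinase, and its part in the differences below was not tested. In the group of the other kinase, BRSK2 stood at 79.8 ± 6.01 CPM (counts scaled to a common library total; SD, n = 3) and BRSK1 at 25.0 ± 4.52 CPM (SD, n = 3). The kinase libraries held between 16516116 and 24304302 counts. BRSK1 replicate 1 stood apart in keratins of squamous epithelium, with KRT5 at 29.9, KRT6A at 28.3, KRT14 at 33.4 and KRT13 at 14.1 CPM. These keratins lay between 0.363 and 9.84 CPM in all libraries other than BRSK1 replicate 1. The summed level of the 9 squamous markers was 220 CPM there against 95.3 to 120 CPM in the BRSK2 libraries. Of these sums DSC3 alone held 106 CPM there and 87.9 to 100 CPM in the BRSK2 libraries. The 10 marker genes of the HEK293 line summed to 1510 to 1630 CPM over the kinase libraries. CKB alone held 883 to 995 CPM of this, while PAX2 stood at 2.42 to 4.37 and TUBB3 at 0.123 to 0.842 CPM. The blood cell markers PTPRC, CD3D, MS4A1 and TYROBP were at 0. The part of the keratin signal in the results was not tested, and the counts of the gene lists are given with and without BRSK1 replicate 1.

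Few genes separated the kinases, and by small steps. Of 16934 genes tested with edgeR's quasi-likelihood test, 57 were called at a Benjamini-Hochberg adjusted p under 0.05 (0.337% of those tested), 38 of them higher with BRSK2 (0.224%) and 19 lower (0.112%). For scale, BRSK2 against the controls (the average of the hcRED and Mock group means) gave 1324 calls (7.82%) and BRSK1 against the same controls gave 1088 (6.42%). The median size of the difference was 0.39 on the log2 scale among the genes called higher and 0.34 among those called lower. A difference past 2-fold was reached by 1 called gene in each direction, SOCS3 and HSPA6. All 57 called genes code for proteins, against 80.4% of the genes tested, and for all 57 the 3 BRSK2 libraries lay wholly above or wholly below the 3 BRSK1 libraries, as they did upwards for 8.65% and downwards for 9.01% of all genes tested. At an unadjusted p under 0.05 there were 1114 genes higher (6.58%) and 978 lower (5.78%) with BRSK2.

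The calls leaned on single libraries and on scaling. Leaving out BRSK2 replicate 1, 2 or 3 gave 58, 13 and 5 calls, and leaving out BRSK1 replicate 1, 2 or 3 gave 5, 6 and 10. Of the 58 calls without BRSK2 replicate 1, only 31 were among the 57, so that library also shaped which genes were called. Scaling by library totals alone, which moved the median of all genes to -0.07, gave 23 genes higher and 181 lower. SOCS3, JUNB and DUSP1, higher with BRSK2, and HSPA6, lower, were called under every alternative that gave an adjusted p. Of these, DESeq2 gave an adjusted p for DUSP1 alone. All 4 were called with each of the 6 libraries left out in turn, and the other 53 genes lost their call under at least 1 alternative. Beside those 4, the fit without BRSK2 replicate 3 called KLF16, that without BRSK1 replicate 1 called E2F1, and that without BRSK1 replicate 2 called DNAJB1 and ITM2B, of which KLF16 was named after its value was seen. RELB, PER1, FASN, MSMO1, RARA, CHST8, OTUD7A, UBOX5, FAM83G and LRIF1, described below, lost their call whichever of the 6 libraries was left out. ARC, CHAC1, STC2, TOP2A, PIF1 and KLF15 kept theirs in only 1 of these 6 fits.

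**Figure D1:**
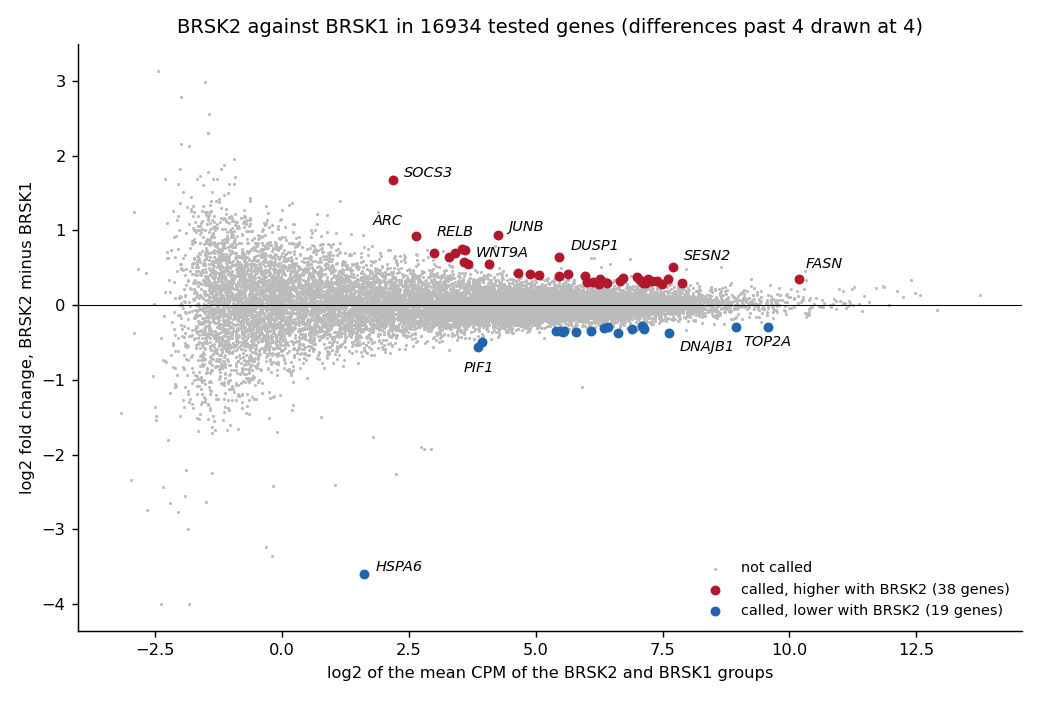
Log2 fold change of BRSK2 minus BRSK1 (vertical) against the log2 of the mean CPM of both groups (horizontal), 1 point per tested gene, with the 38 genes called higher in red and the 19 called lower in blue. SOCS3 at 1.67 and HSPA6 at -3.60 stand apart from the other called genes, most of which lie within 0.5 of zero.

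SOCS3 had the largest upward difference of the called genes. It encodes a suppressor of cytokine signalling, a feedback inhibitor of JAK-STAT signalling (ENSG00000184557; hg38, chromosome 17, 78356778 to 78360077, minus strand). Its level was 5.92, 7.13 and 7.76 TMM-scaled CPM in the BRSK2 libraries and 1.28, 2.75 and 2.45 in the BRSK1 libraries, with 1.27 and 1.13 in hcRED and 1.61 and 1.14 in Mock. The BRSK2 libraries were thus above all other libraries. SOCS3 differed by 1.67 ± 0.24 (SE) on the log2 scale (edgeR adjusted p = 0.000944), and by 1.59 with each library's trend with GC content removed. Against the controls its own values were 2.42 ± 0.23 in the BRSK2 group (adjusted p = 4.27e-07) and 0.75 ± 0.26 in the BRSK1 group (adjusted p = 0.0790).

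JUNB and DUSP1 were also called under every alternative that gave an adjusted p. Both are immediate early genes, the transcripts that growth factors and stress switch on first. JUNB, a subunit of the AP-1 transcription factor (ENSG00000171223; hg38, chromosome 19, 12791496 to 12793315, plus strand), stood at 21.2, 29.1 and 24.6 CPM with BRSK2 and at 12.2, 13.2 and 13.7 CPM with BRSK1. The 4 control libraries held between 13.1 and 15.1 CPM of JUNB, so the BRSK1 libraries overlapped the controls and the BRSK2 libraries lay above both. The JUNB difference was 0.94 ± 0.12 (SE; edgeR adjusted p = 0.000134). DUSP1, the phosphatase that inactivates MAP kinases (ENSG00000120129; hg38, chromosome 5, 172768090 to 172771195, minus strand), stood at 45.4, 55.0 and 61.1 CPM with BRSK2, at 32.0, 36.9 and 34.5 CPM with BRSK1 and at 25.1 to 25.7 CPM in the controls. DUSP1 was therefore lowest in the controls, higher in the BRSK1 and highest in the BRSK2 libraries, with no overlap between these 3 sets. It differed between the kinases by 0.64 ± 0.09 (edgeR adjusted p = 0.000944), and from the controls by 1.07 ± 0.09 with BRSK2 (2.50e-08 adjusted) and 0.43 ± 0.09 with BRSK1 (0.00594 adjusted).

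HSPA6 had the largest downward difference of the called genes. It encodes a strictly stress-inducible member of the HSP70 chaperone family (ENSG00000173110; hg38, chromosome 1, 161524540 to 161526910, plus strand). The BRSK2 libraries held 3, 9 and 13 raw counts of HSPA6 and the BRSK1 libraries 75, 145 and 170, while hcRED had 36 and 69 and Mock 9 and 3. In CPM these were 0.164, 0.443 and 0.827 with BRSK2, 3.55, 6.42 and 7.06 with BRSK1, 1.70 and 3.38 in hcRED and 0.454 and 0.148 in Mock. The BRSK1 libraries were above all others, the hcRED libraries lay between, and the BRSK2 and Mock libraries shared 1 low range. HSPA6 differed by -3.60 ± 0.43 on the log2 scale (SE; edgeR adjusted p = 0.000944). Against the mean of the controls, which themselves were apart for this gene, the value was 2.69 ± 0.37 with BRSK1 (adjusted p = 0.000751) and -0.91 ± 0.55 with BRSK2 (adjusted p = 0.355). HSPA6 has a near-identical neighbouring copy, HSPA7, and reads of the 2 can be split between them, so its level is uncertain to that extent. Its lowest BRSK1 value belongs to replicate 1, the library with keratin transcripts, and the difference was still called without it.

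**Figure D2:**
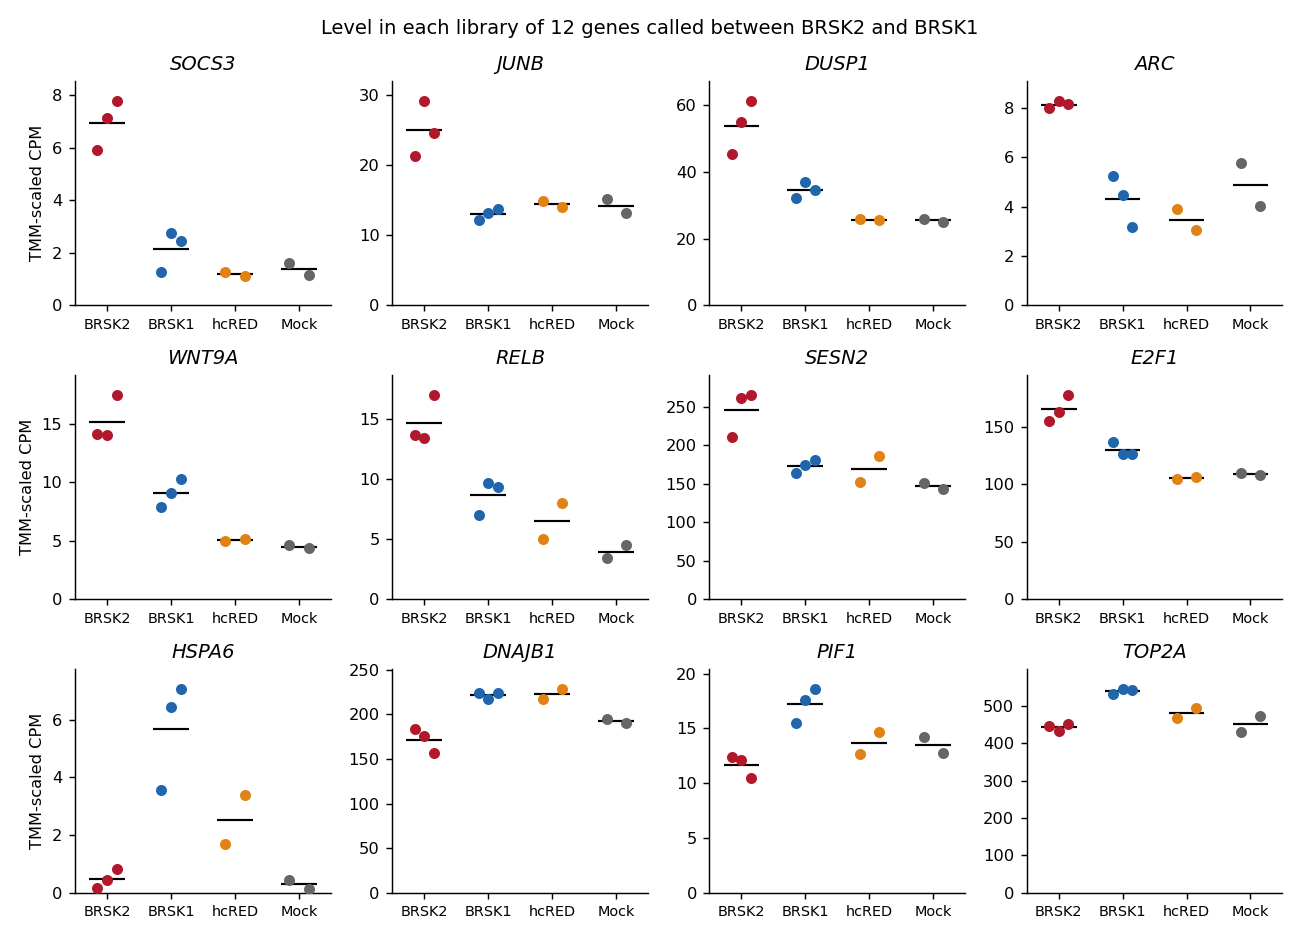
TMM-scaled CPM (vertical, linear from 0) of 12 called genes in each library of the BRSK2, BRSK1, hcRED and Mock groups, with 1 point per library and a line at the group mean. The BRSK2 libraries lie above the BRSK1 libraries in the top 8 panels and below them in the bottom 4, where HSPA6 is near 0 with BRSK2 and in Mock.

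The promoters of JUNB, DUSP1 and HSPA6 are shown because these are 3 of the 4 genes called under every alternative that gave an adjusted p. Each line is the 250 bases before the RefSeq start site (RefSeq sequences, build GRCh38.p14), 5′ to 3′ on the gene's strand: chr19:12791236-12791485 (plus) for JUNB, chr5:172771196-172771445 (minus) for DUSP1 and chr1:161524290-161524539 (plus) for HSPA6. Capitals mark matches to 4 motifs searched on both strands: the STAT site TTCNNNGAA, the cAMP response element TGACGTCA bound by CREB, and 2 arrangements of the heat shock element, head to head GAANNTTC and tail to tail TTCNNGAA.
JUNB: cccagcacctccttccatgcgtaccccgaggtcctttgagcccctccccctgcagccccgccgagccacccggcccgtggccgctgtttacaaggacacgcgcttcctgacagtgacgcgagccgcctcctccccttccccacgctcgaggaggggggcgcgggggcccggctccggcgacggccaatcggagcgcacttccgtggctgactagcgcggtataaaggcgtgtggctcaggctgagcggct
DUSP1: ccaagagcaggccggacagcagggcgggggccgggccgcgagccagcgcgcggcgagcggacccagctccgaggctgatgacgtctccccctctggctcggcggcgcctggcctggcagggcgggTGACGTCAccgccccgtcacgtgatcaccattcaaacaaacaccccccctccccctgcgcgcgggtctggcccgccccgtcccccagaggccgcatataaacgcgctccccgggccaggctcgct
HSPA6: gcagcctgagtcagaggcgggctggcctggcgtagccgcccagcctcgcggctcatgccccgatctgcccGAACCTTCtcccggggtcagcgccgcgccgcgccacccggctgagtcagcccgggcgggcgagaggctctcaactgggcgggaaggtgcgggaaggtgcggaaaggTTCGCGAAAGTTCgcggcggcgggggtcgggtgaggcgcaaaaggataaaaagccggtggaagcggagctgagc
DUSP1 holds 1 full cAMP response element, TGACGTCA, from 125 to 118 bases before the start, a motif that 1.77% of the 27305 RefSeq promoters hold in this window. HSPA6 holds GAACCTTC from 180 to 173, TTCGCGAA from 74 to 67 and GAAAGTTC from 69 to 62 bases before the start, the last 2 overlapping. The head-to-head pattern occurs in 5.85% and the tail-to-tail pattern in 6.72% of all promoters in that table. JUNB has no match to any of the 4 motifs in its window, and neither has the RefSeq window of DNAJB1, chr19:14529272-14529521. That DNAJB1 window lies inside the annotated gene, 14514770 to 14529770 on the minus strand. It is thus not the stretch before the annotated DNAJB1 start, which was not searched. The SOCS3 window in RefSeq, chr17:78360926-78361175, is not shown, because the RefSeq start it precedes lies well beyond the SOCS3 interval given above, which ends at 78360077. That window holds 1 tail-to-tail heat shock pattern, TTCCGGAA, from 215 to 208 bases before the RefSeq start. It holds no match to the STAT site, which 6.78% of promoters hold. The bases directly before the SOCS3 start of the interval given above were not searched, so the presence of a STAT site there was not tested. Of the called genes, 26 of 38 higher and 15 of 19 lower had a promoter in the table. The cAMP response element was in 1 of those 26, DUSP1, and in 0 of the 15. The STAT site was in 0 of the 26 and in 2 of the 15, the head-to-head pattern in 2 and 2, and the tail-to-tail pattern in 1 and 2. These counts include the SOCS3 and DNAJB1 windows, and SOCS3 is the 1 of the 26 with the tail-to-tail pattern. A match is a run of letters and not an observed binding site.

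Immediate early genes as a list lay higher with BRSK2. Of 31 tested members, 3 were called higher, JUNB, DUSP1 and ARC, and 0 were called lower by edgeR. DESeq2 called 3 higher and 0 lower, but not the same 3, as it gave JUNB and ARC no adjusted p. At an unadjusted p under 0.05, 14 members (45.2%) were higher and 0 lower, against 6.58% and 5.78% of all genes tested. The list's median was 0.32, against 0.001 over all genes. ARC, an activity-regulated cytoskeletal gene known from synapses, stood at 8.0, 8.26 and 8.14 CPM with BRSK2 against 5.26, 4.47 and 3.15 with BRSK1, a difference of 0.93 ± 0.19 (edgeR adjusted p = 0.0350). The controls, at 3.04 to 5.75 CPM of ARC, spanned the BRSK1 libraries. MYC, the growth-promoting transcription factor, did not pass, at 0.34 ± 0.09 (adjusted p = 0.117). With the GC trend removed, 11 members (35.5%) were higher and 0 lower at an unadjusted p under 0.05, against 4.46% and 4.64% of all genes, with a list median of 0.26. Leaving out 1 library left between 11 and 19 members higher at that threshold, with 12 without BRSK1 replicate 1.

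The NF-kB list holds the subunits, regulators and targets of a transcription factor of inflammation and survival. Of 18 tested members, 1 was called higher and 0 lower by edgeR. DESeq2 called 0, but gave that called member no adjusted p. At an unadjusted p under 0.05, 10 (55.6%) were higher and 0 lower, with a median of 0.17. The called member was RELB, the subunit of the non-canonical arm of the pathway, at 13.6, 13.4 and 16.98 CPM with BRSK2 and 7.01, 9.70 and 9.34 CPM with BRSK1. RELB differed by 0.75 ± 0.17 (edgeR adjusted p = 0.0464). Its control libraries held 4.99 and 7.98 CPM (hcRED) and 3.38 and 4.51 CPM (Mock), and its own values against the controls were 1.53 ± 0.16 with BRSK2 and 0.78 ± 0.17 with BRSK1 (adjusted p = 2.23e-06 and 0.00797). NFKBIA, the inhibitor that NF-kB itself induces, was at 0.45 ± 0.13 and did not pass (adjusted p = 0.135). The number higher at an unadjusted p under 0.05 was 7 (38.9%) with the GC trend removed and 4 (22.2%) without BRSK2 replicate 3, where 1 member was lower, and 6 without BRSK1 replicate 1.

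Genes of the integrated stress response, which ATF4 drives when amino acids run short or proteins misfold, also lay higher. Of 39 tested members, 3 were called higher and 0 lower by edgeR. DESeq2 called 3 higher and 0 lower, but not the same 3, as it gave CHAC1, which edgeR called, no adjusted p. At an unadjusted p under 0.05, 13 (33.3%) were higher and 1 (2.56%) lower, with a median of 0.14. SESN2, a leucine-sensing inhibitor of mTORC1, stood at 211, 261 and 265 CPM with BRSK2 and at 164, 174 and 180 CPM with BRSK1, against 143 to 186 CPM in the controls. It differed by 0.51 ± 0.08 (edgeR adjusted p = 0.0173). CHAC1, which degrades glutathione, stood at 11.3, 13.7 and 14.6 CPM with BRSK2 against 5.92, 8.54 and 9.84 with BRSK1 (0.70 ± 0.16, adjusted p = 0.0473), and its BRSK1 libraries overlapped the controls at 5.69 to 8.53 CPM. STC2, a secreted glycoprotein, showed another order: 134, 154 and 158 CPM with BRSK2, 122, 119 and 113 with BRSK1, and 132 to 150 in the controls. The BRSK1 libraries were thus the low ones for STC2 (0.34 ± 0.07, edgeR adjusted p = 0.0282), which stood 0.25 ± 0.06 below the controls with BRSK1 (adjusted p = 0.0170). With the GC trend removed 0 members were called and 11 (28.2%) were higher and 3 (7.69%) lower at an unadjusted p under 0.05, and 14 were higher without BRSK1 replicate 1.

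Genes of mitosis lay lower with BRSK2. Of 44 tested genes of G2 and M phase, 2 were called lower and 0 higher by edgeR. DESeq2 called 7 lower and 0 higher, and gave no adjusted p for PIF1, which edgeR called. At an unadjusted p under 0.05, 21 (47.7%) were lower and 1 (2.27%) higher. The median was -0.16, with 40 of 44 members negative. TOP2A, the topoisomerase that untangles chromosomes before division, stood at 446, 432 and 451 CPM with BRSK2 and 533, 545 and 543 with BRSK1, with 431 to 494 in the controls. Here the BRSK1 libraries were the high ones (-0.29 ± 0.06, edgeR adjusted p = 0.0380), and BRSK2 lay within the controls' range. PIF1, a DNA helicase, stood at 12.4, 12.2 and 10.5 CPM with BRSK2 against 15.5, 17.6 and 18.6 with BRSK1 and 12.7 to 14.6 in the controls (-0.56 ± 0.12, edgeR adjusted p = 0.0380), so that the controls lay between the kinases. The mitotic kinase gene AURKA stood at -0.27 ± 0.06 (adjusted p = 0.0716) and the mitotic kinesin gene KIF20A at -0.29 ± 0.07 (adjusted p = 0.0705), neither past the threshold, and both named after their values were seen. With the GC trend removed, 16 members (36.4%) were lower and 1 higher at an unadjusted p under 0.05, with a median of -0.11, and 17 to 22 were lower when 1 library was left out, with 17 without BRSK1 replicate 1.

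Of 51 tested genes of G1 and S phase 2 were called higher, the transcription factors E2F1 and E2F2, which switch on replication genes, and 0 lower by edgeR, while DESeq2 called 3 higher and 1 lower. At an unadjusted p under 0.05, 11 (21.6%) were higher and 2 (3.92%) lower, and the list's median was 0.02. The number higher at that threshold was 5 (9.80%) with the GC trend removed, with 3 (5.88%) lower, and 7 (13.7%) without BRSK1 replicate 1 or BRSK1 replicate 3. E2F1 stood at 155, 163 and 178 CPM with BRSK2 and 137, 127 and 127 CPM with BRSK1, with 105 to 110 CPM in the controls, so that the order was the same as for DUSP1. E2F1 differed by 0.34 ± 0.06 (edgeR adjusted p = 0.0185), and by 0.62 ± 0.06 with BRSK2 and 0.28 ± 0.06 with BRSK1 against the controls (adjusted p = 3.39e-07 and 0.00717).

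**Figure D3:**
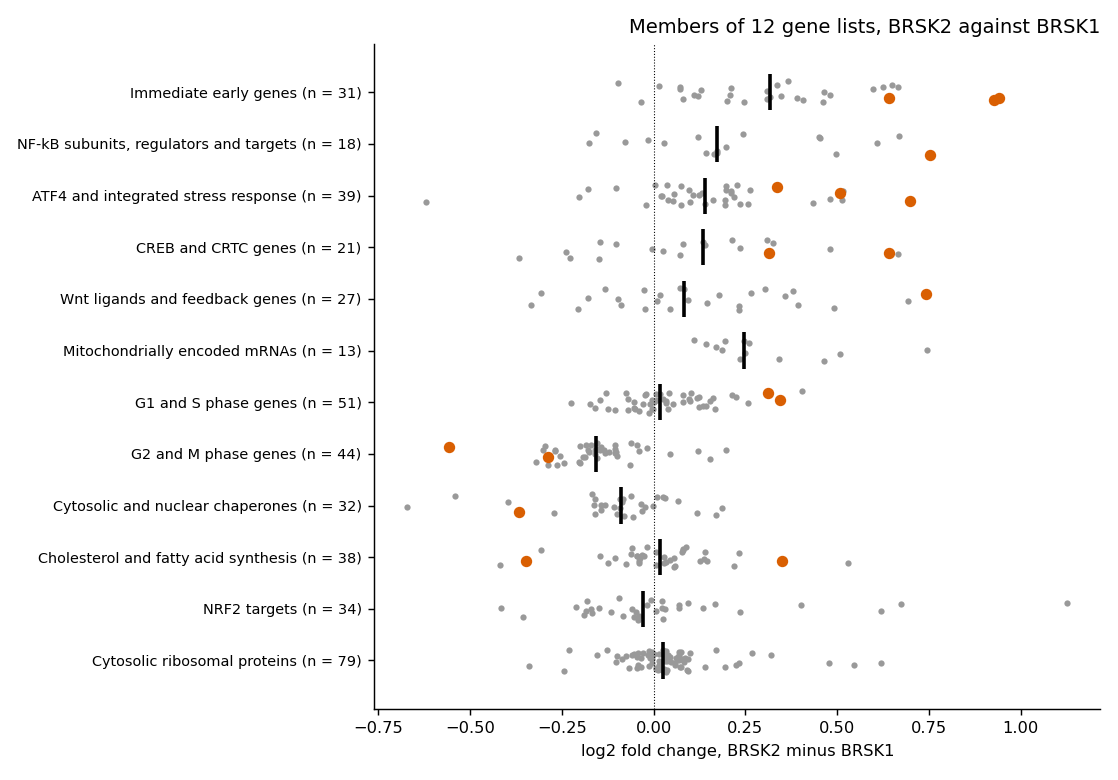
Log2 fold change of BRSK2 minus BRSK1 (horizontal) of each tested member of 12 gene lists, called members in orange, others in grey, with a bar at each list's median. The immediate early list has its median at 0.32 and the G2 and M phase list at -0.16, while the cytosolic ribosomal proteins centre on 0.03.

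Chaperones other than HSPA6, which is not on the list of cytosolic and nuclear chaperones, had 1 call among 32 tested members. DNAJB1, the HSP40 partner that loads clients on HSP70, stood at 184, 175 and 156 CPM with BRSK2 and 224, 218 and 224 CPM with BRSK1 (-0.37 ± 0.06, edgeR adjusted p = 0.0121). The hcRED libraries had 217 and 228 CPM of DNAJB1 and the Mock libraries 195 and 191 CPM, so the BRSK2 libraries were the low ones. DNAJB1 stayed called with the GC trend removed (-0.41, adjusted p = 0.00260), and its call was lost without BRSK2 replicate 3, BRSK1 replicate 1 or BRSK1 replicate 3 (adjusted p = 0.111, 0.0598 and 0.0684). At an unadjusted p under 0.05, 6 members (18.8%) were lower and 1 (3.12%) higher, with a median of -0.09. The number lower was 2 (6.25%) without BRSK2 replicate 3 or BRSK1 replicate 2 and 3 (9.38%) without BRSK1 replicate 1, and 6 with the GC trend removed.

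Among the CREB and CRTC genes, the targets and coactivators of cAMP signalling that salt-inducible kinases of the same family hold in check, 2 of 21 tested members were called higher, DUSP1 and PER1, and 0 lower by edgeR, with 6 (28.6%) higher and 0 lower at an unadjusted p under 0.05. With 1 library left out 6 to 7 were higher, 6 of them without BRSK1 replicate 1. DESeq2 called 3 higher and 0 lower. PER1, a clock gene, stood at 80.7, 75.8 and 77.0 CPM with BRSK2 and 67.5, 59.0 and 61.6 CPM with BRSK1, with 71.2 to 86.5 CPM in the controls, so the BRSK1 libraries were the low ones (0.31 ± 0.07, edgeR adjusted p = 0.0454). DUSP1 is also on the immediate early list, so these counts are not separate. Of the Wnt list, 1 of 27 was called, and 2 (7.41%) were higher and 0 lower at an unadjusted p under 0.05, as they were without BRSK1 replicate 1: the ligand WNT9A stood at 14.1, 14.1 and 17.5 CPM with BRSK2, 7.86, 9.07 and 10.3 CPM with BRSK1 and 4.36 to 5.19 CPM in the controls. WNT9A differed by 0.74 ± 0.14 (edgeR adjusted p = 0.0188) and followed the order of DUSP1 and E2F1.

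Of 38 tested genes of cholesterol and fatty acid synthesis 1 was called higher and 1 lower, with 3 (7.89%) higher and 5 (13.2%) lower at an unadjusted p under 0.05 and a median of 0.02. With 1 library left out, 2 to 5 were higher and 3 to 4 lower, with 5 and 4 without BRSK1 replicate 1. FASN, the fatty acid synthase, was higher with BRSK2 at 1455, 1230 and 1233 CPM against 1099, 931 and 1046 CPM (0.35 ± 0.08, edgeR adjusted p = 0.0439), with 1055 to 1398 CPM in the controls. MSMO1, a sterol oxidase of cholesterol synthesis, was lower, at 36.0, 37.4 and 37.9 CPM against 48.7, 47.6 and 45.2 CPM (-0.35 ± 0.07, adjusted p = 0.0380), with 36.2 to 37.3 CPM in the controls. For MSMO1 the BRSK1 libraries lay above all controls, by 0.35 ± 0.07 (adjusted p = 0.00390), while for FASN the libraries of both kinases overlapped the range of the controls. Neither call held with the GC trend removed (adjusted p = 0.257 and 0.244).

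NRF2 targets gave no call between the kinases. Of 34 tested members 0 were called by edgeR and by limma-voom, DESeq2 called 1 lower, and 2 (5.88%) were higher and 5 (14.7%) lower at an unadjusted p under 0.05, with a median of -0.03. The number lower was 3 (8.82%) with the GC trend removed or without BRSK2 replicate 1, and 2 (5.88%) without BRSK1 replicate 1, 2 or 3, and the number higher ran from 0 without BRSK2 replicate 2 to 3 without BRSK2 replicate 3 or BRSK1 replicate 3. SLC7A11, the cystine transporter, stood at 30.9, 26.4 and 26.5 CPM with BRSK2 and 29.1, 29.9 and 23.5 CPM with BRSK1, against 38.0 to 44.0 CPM in the controls. The 2 kinase groups overlapped below the controls, and their difference was 0.02 ± 0.10 (edgeR adjusted p = 0.960), with a 95% interval of -0.18 to 0.23. HMOX1, the haem oxygenase, stood at 32.8, 43.0 and 37.6 CPM with BRSK2 and 46.3, 48.6 and 50.5 CPM with BRSK1. Its libraries did not overlap, and its difference of -0.36 ± 0.10 (95% interval -0.55 to -0.16) did not pass (adjusted p = 0.117). The quinone reductase gene NQO1 was at -0.18 ± 0.18 (95% interval -0.54 to 0.18, adjusted p = 0.731). GCLM, the modifier subunit of glutathione synthesis, was at -0.17 ± 0.08 (-0.32 to -0.01, adjusted p = 0.358), and the thioredoxin reductase gene TXNRD1 at -0.09 ± 0.06 (-0.22 to 0.03, adjusted p = 0.526). Of the 19 NRF2 pathway regulators 0 were called by edgeR, 1 was higher and 1 lower at an unadjusted p under 0.05, and DESeq2 called 1 higher. With 1 library left out, 1 to 3 were higher and 0 to 1 lower, with 3 and 1 without BRSK1 replicate 1.

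The 13 mRNAs encoded by mitochondrial DNA, which specify subunits of the respiratory chain, were all positive between the kinases, with a median of 0.25. Against the controls the list's median was -0.21 with BRSK2 and -0.47 with BRSK1, so both medians lay below the controls. None passed by edgeR, DESeq2 or limma-voom (0 of 13), and 4 (30.8%) were higher at an unadjusted p under 0.05. BRSK1 replicate 1 was the lowest of the 10 libraries for 13 of the 13. For MT-ND3, a subunit of complex I, the values were 1526, 1505 and 1402 CPM with BRSK2 and 795, 1277 and 1144 CPM with BRSK1 (0.46 ± 0.17, edgeR adjusted p = 0.333). Without BRSK1 replicate 1 the list's median was 0.11, 2 members were higher at an unadjusted p under 0.05, and MT-CO2 turned to -0.01. Leaving out BRSK2 replicate 1, 2 or 3 gave 0, 3 and 6 members higher at that threshold, leaving out BRSK1 replicate 2 or 3 gave 6 and 10, and removing the GC trend gave 6.

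Gene lists near the known roles of these kinases gave few differences. Of 35 tested microtubule-associated and regulating proteins, the class that BRSK kinases phosphorylate in neurons, edgeR and limma-voom called 0 and DESeq2 called 2 higher, and 2 (5.71%) were higher and 4 (11.4%) lower at an unadjusted p under 0.05, as they were without BRSK1 replicate 1. The smallest p belonged to MAP1S, a microtubule-associated protein, at 0.30 ± 0.08 (edgeR adjusted p = 0.108). Of 29 synaptic vesicle and neurofilament genes edgeR and limma-voom called 0 and DESeq2 1 higher, with 5 (17.2%) higher and 1 (3.45%) lower at an unadjusted p under 0.05. With the GC trend removed 1 (3.45%) was higher and 1 lower, without BRSK2 replicate 1, BRSK1 replicate 2 or BRSK1 replicate 3 it was 3 (10.3%) and 1, without BRSK2 replicate 2 it was 4 and 3, and without BRSK1 replicate 1 it was 4 and 2. NEFM, the medium neurofilament chain, stood at 186, 184 and 178 CPM with BRSK2 and 164, 155 and 147 CPM with BRSK1 (0.23 ± 0.06, adjusted p = 0.117), with libraries apart but no call. Of the 13 other AMPK-related kinases 0 were called by edgeR, DESeq2 or limma-voom, and 2 (15.4%) were higher at an unadjusted p under 0.05, with MARK2, a microtubule affinity-regulating kinase, at 0.21 ± 0.06 (adjusted p = 0.150). That number was 1 without BRSK2 replicate 2, BRSK1 replicate 1 or BRSK1 replicate 3.

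Growth and p53 genes were likewise mostly below the threshold. Of 33 genes of the MYC and ribosome biogenesis list edgeR and limma-voom called 0 and DESeq2 2 higher, while 7 (21.2%) were higher and 0 lower at an unadjusted p under 0.05, with a median of 0.08. Without BRSK2 replicate 1 it was 3 (9.09%) and 1, without BRSK1 replicate 3 it was 4 (12.1%) and 0, and without BRSK1 replicate 1 it was 8 and 0. Of 30 p53 targets 1 was called, SESN2, which is also an ATF4 target, and 3 (10.0%) were higher and 7 (23.3%) lower at an unadjusted p under 0.05, with a median of -0.11. With 1 library left out, 5 to 10 were lower, with 8 without BRSK1 replicate 1, and the number higher was 6 without BRSK2 replicate 1 and 2 with any other kinase library left out. TP53INP1, a p53-induced nuclear protein, stood at 14.2, 15.5 and 14.5 CPM with BRSK2 and 16.5, 21.4 and 22.4 CPM with BRSK1, with no call (-0.45 ± 0.12, adjusted p = 0.103). Its hcRED libraries held 20.1 and 22.3 CPM and its Mock libraries 11.3 and 13.2 CPM, so the 2 control groups were themselves apart.

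The remaining called genes included transcription factors for which the BRSK1 libraries were the low ones, among them RARA and KLF15. KLF16 and ZBTB7A, named after their values were seen, also had their BRSK1 libraries below all controls. The retinoic acid receptor RARA stood at 29.96, 30.3 and 25.7 CPM with BRSK2, at 20.6, 23.1 and 20.3 CPM with BRSK1 and at 28.6 to 31.2 CPM in the controls. RARA differed by 0.43 ± 0.09 (edgeR adjusted p = 0.0400), and was 0.47 ± 0.09 lower with BRSK1 than in the controls (adjusted p = 0.00274). The Krüppel-like factor KLF15 showed the same order, with 14.5, 15.1 and 15.3 CPM under BRSK2, 9.47, 10.6 and 10.6 CPM under BRSK1 and 12.1 to 14.8 CPM in the controls (0.55 ± 0.11, adjusted p = 0.0350). Other genes called higher, at log2 differences from 0.42 to 0.70, were CHST8, a sulfotransferase (0.70 ± 0.15), OTUD7A, a deubiquitinase (0.65 ± 0.14), UBOX5, an E3 ubiquitin ligase (0.58 ± 0.12), ST3GAL1, a sialyltransferase (0.55 ± 0.11) and FAM83G (0.42 ± 0.09). Among the genes called lower, LRIF1, a chromatin-associated factor, stood at 12.3, 12.5 and 13.6 CPM with BRSK2 and 17.99, 18.1 and 17.9 CPM with BRSK1 (-0.49 ± 0.11, adjusted p = 0.0392). ITM2B, an integral membrane protein, stood at 81.0, 88.9 and 87.5 CPM against 111, 106 and 117 CPM (-0.38 ± 0.06, adjusted p = 0.0121). SCOC, TMEM38B, ARMT1, PSRC1, GTF2A1, ARL6IP1, DEPDC1, ATP6AP2 and HMGN2 lay between -0.36 and -0.30.

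Called genes differed in base composition. The median GC content of the longest transcript was 61.6% for the 38 genes called higher, 39.1% for the 19 called lower and 49.2% over all genes tested. All 38 genes called higher were above 50% GC, against 47.6% of all genes tested, and 10 of the 38 (26.3%) lie on chromosome 19, which holds 6.96% of the genes tested. Over all genes, in 4 equal groups from the lowest to the highest GC content, the median difference was -0.08, -0.02, 0.04 and 0.09. Removing each library's trend with GC content (lowess, span 0.3) left 8 calls (0.0472%), of which 7 were among the 57: SOCS3 (1.59), JUNB (0.84) and DUSP1 (0.59) higher, and HSPA6 (-3.67), PIF1 (-0.65), DNAJB1 (-0.41) and PSRC1, a spindle protein (-0.40), lower. The eighth, the CDK4 and CDK6 inhibitor CDKN2C (-0.34), was chosen for naming after its value was seen. The GC-rich minus GC-poor difference in level was 0.11, 0.13 and 0.06 in the BRSK2 libraries and -0.02, -0.17 and -0.02 in the BRSK1 libraries. The hcRED libraries stood at -0.0 and -0.04, a range that holds BRSK1 replicates 1 and 3. The Mock libraries, at 0.07 and -0.08, spanned both signs, and the first of them lay within the BRSK2 range. Composition moves with the kinase groups here, and its part in the 50 calls lost under that correction was not tested further.

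**Figure D4:**
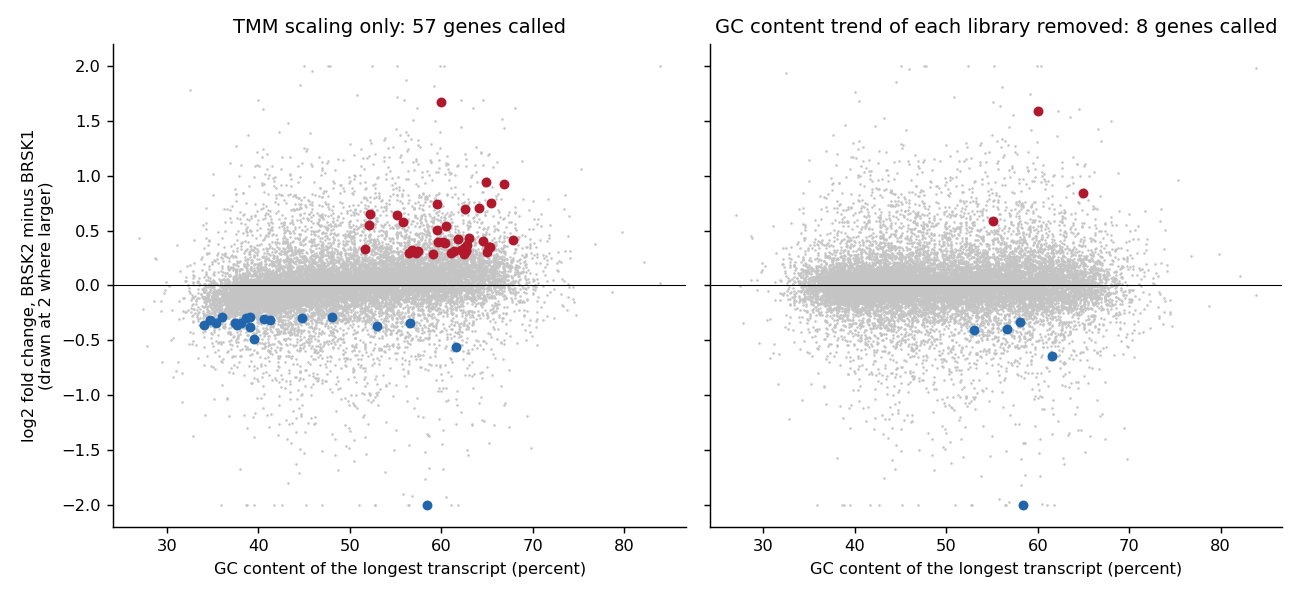
Log2 fold change of BRSK2 minus BRSK1 (vertical, drawn at 2 where larger) against the GC content of each gene's longest transcript (horizontal, percent), with called genes in red (higher) and blue (lower). With TMM scaling only (left) 57 genes are called and those called higher are all above 50% GC, while with each library's GC trend removed (right) 8 are called.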

How the data were processed

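RNA was measured in 10 HEK293T libraries. The deposited files hold raw counts of reads by gene, 1 file for each kinase with the 4 control libraries, whose counts were identical in both (0 genes differed), and were joined on gene ID (58676 genes). The submitters' processing notes name STAR, edgeR, limma and hg38; the read counter, annotation release and strand setting were not given in the sources used here, so overlapping and near-identical genes may share counts. The authors' deposited comparison and heat map tables were not used, and 0 other count columns were left over.

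Counts were tested as deposited with edgeR 4.0.16 (R 4.3.3): TMM factors, filterByExpr (minimum count 10, minimum total 15), and a robust quasi-likelihood fit of 4 group means over all 10 libraries (biological coefficient of variation 8.06%), with Benjamini-Hochberg adjustment at 0.05. The SE is the absolute log2 fold change over the square root of F. CPM are TMM-scaled, except in the paragraph on the kinases' shares of counts and the cell type markers, where library totals were used. Both kinases share the controls, so their values against the controls (the mean of the hcRED and Mock group means) are given side by side. Levels in the libraries are single values, and their number limits the precision. In data simulated from these libraries (16627 genes, 200 changed) the fit recovered 82% of changes of 0.5 and 100% of changes of 1 on the log2 scale, with 12 false calls. Changes were simulated only in genes with a mean level above those of SOCS3 and HSPA6. No GC trend and no outlying library were simulated, so the recovery in the real libraries was not tested.

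Alternatives were RLE, upper quartile and library-total scaling, the kinases left out before scaling, no filter or a 1 CPM filter (3 libraries), limma-voom (limma 3.58.1), DESeq2 1.42.0, no robust estimation, a replicate block, only the 6 kinase libraries, an adjusted p under 0.01, removal of GC trends (longest GENCODE 29 transcript) and each kinase library left out. Named were BRSK1, BRSK2, the 15 largest called differences each way with at least 2 CPM and libraries apart, up to 5 called members of each list (2 with the smallest p where fewer than 2 were called), 5 NRF2 targets and the mitochondrial mRNAs. The genes compared, lists and markers were chosen with earlier results of these data known. Figures used matplotlib 3.10.9 (Python 3.11.15).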

Additional observations from a re-analysis of the deposited data

How the results depend on the processing

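Calls between the kinases numbered 57 (38 higher and 19 lower with BRSK2). They numbered 204 (23 and 181) under library totals alone, 186 (119 and 67) with no filter, 188 (106 and 82) by DESeq2, which gave no adjusted p for 11164 genes, and 12 (9 and 3) with no robust estimation. A fit of only the 6 kinase libraries gave 18 (14 and 4), the removed GC trend 8 (3 and 5), and an adjusted p under 0.01 gave 4 (3 and 1). The cause of these shifts was not tested. RLE and upper quartile factors, the kinases left out before scaling, the 1 CPM filter and limma-voom gave 55 to 60 calls. Leaving out 1 library gave 5 to 58 calls, 3 to 40 higher and 1 to 18 lower. With the replicate number as a block there were 265 calls (165 and 100), which held all 57. The labels do not say that the numbers pair the samples, and the deviations of same-numbered libraries from their group means correlated at 0.161, 0.000331 and 0.0193 for replicates 1, 2 and 3 (across 16934 genes, which are not independent); not every library correlated best with its own number. SLC7A11, never called between the kinases, changed sign to -0.0442 under library totals, which move the median of all genes to -0.066, -0.0553 without BRSK2 replicate 1 and -0.0794 without BRSK1 replicate 3, and MT-CO2, also not called, to -0.00754 without BRSK1 replicate 1. Over the left-out libraries they ranged up to 0.0896 for SLC7A11 (without BRSK1 replicate 2) and 0.235 for MT-CO2 (without BRSK1 replicate 3). No called gene changed direction under any alternative that gave it an adjusted p. Depth limits HSPA6 most, at 3 to 13 counts per BRSK2 library.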
